A study of Mus musculus with 2 samples.

Results

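The genes described here are 40 cell cycle genes, 20 with peak expression in S phase, when DNA is copied, and 20 that peak in G2 phase and mitosis (G2/M). They were taken by name, from a list chosen with earlier results of these data known, and all 40 were found among the 32285 genes of the files. Their RNA was followed across 5 classes of cell barcodes in single-cell RNA-seq data from tumours of MC38, a colon carcinoma cell line of mice. The labels give 1 group of 2 replicate libraries, made with the 10x Chromium 3′ chemistry from immune cells sorted out of the tumours at day 21. They give no strain, treatment, genotype or age of the mice, and the words in the names of the deposited files, which the labels do not explain, were not used. Replicate 1 held 1791 Xist UMIs (unique molecular identifiers, each standing for 1 captured RNA molecule) and 0 UMIs of 4 Y-linked genes in its kept barcodes, whereas the corresponding counts of replicate 2 were 0 and 383, which shows that more than 1 animal was used.

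The S phase genes fall into a few functional sets. Mcm2 to Mcm7 form the replicative helicase, which Cdc6 and Cdt1 load onto DNA and Gins2 helps to activate. Pcna is the sliding clamp of the DNA polymerases, and Pclaf binds it. Tyms, Dut, Rrm1 and Rrm2 keep up the supply of nucleotides, Ung removes uracil from DNA, Uhrf1 and Hells maintain DNA methylation, Tipin protects stalled forks and Slbp binds histone mRNA. The G2/M genes drive and carry out mitosis. Cdk1 with its partners Ccnb1, Ccnb2 and Cks2 is the mitotic kinase. Plk1, Aurka, Aurkb, Bub1, Birc5 and Tpx2 act on the spindle, its checkpoint and cell division, as do Nusap1 and the kinetochore genes Cenpa, Cenpe and Cenpf. Cdc20 and Ube2c work with the ubiquitin ligase that ends mitosis, Top2a untangles DNA, and Mki67 encodes the proliferation marker Ki-67. In textbook accounts, E2F proteins switch on the S phase set, and the MuvB complex acts on the mitotic set through a promoter element called CHR, often beside CCAAT boxes bound by NF-Y.

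The promoters of the members were searched for these elements. RefSeq promoter windows (build GRCm38.p6), from 250 bases before to 50 bases after a gene's start, were at hand for 35 members, 17 of the S and 18 of the G2/M set, and for 27025 genes in all. The CHR letters TTTGAA, on either strand, stood in the windows of 12 of 18 G2/M members and 1 of 17 S members, against 18.1% of all genes. CCAAT, on either strand, stood in 16 of 18 G2/M and 11 of 17 S members, against 37.9% of all genes. An E2F site (TTTGGCGC, TTTGCCGC, TTTCGCGC or TTTCCCGC, either strand) stood in 8 of 17 S members and 1 of 18 G2/M members, against 2.32% of all genes. These are matches of letters, and no binding was measured. The stretches below lie before the start, 5′ to 3′ on the gene's strand and free of annotated exons. Top2a, Cdc20 and Cks2 are shown because they were higher in 1 class (below), Mki67 because it was not, and Mcm5 and Mcm6 as the S phase counterpart. Mki67 carries 2 CHR matches, and Plk1, Hmgb2 and Tubb4b, which were not called higher either, also carry CHR. Cks2 and Ccnb1, which were called higher, carry CCAAT without CHR. Any relation of the matches to the levels was not tested. Capitals mark the CHR, CCAAT and E2F matches, some of which read as the reverse complement.
Top2a, chr11:99024190-99024339, minus strand: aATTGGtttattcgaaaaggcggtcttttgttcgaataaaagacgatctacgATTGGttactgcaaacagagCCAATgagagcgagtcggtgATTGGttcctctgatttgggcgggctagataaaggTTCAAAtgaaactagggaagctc
Cdc20, chr4:118437353-118437493, minus strand: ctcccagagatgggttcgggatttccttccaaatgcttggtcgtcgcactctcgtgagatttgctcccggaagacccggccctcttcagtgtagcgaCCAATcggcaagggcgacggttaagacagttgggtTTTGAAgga
Cks2, chr13:51645082-51645231, plus strand: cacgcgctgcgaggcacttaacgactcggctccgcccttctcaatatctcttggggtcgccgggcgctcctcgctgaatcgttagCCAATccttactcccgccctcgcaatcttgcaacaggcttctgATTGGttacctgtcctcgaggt
Mki67, chr7:135716380-135716529, minus strand: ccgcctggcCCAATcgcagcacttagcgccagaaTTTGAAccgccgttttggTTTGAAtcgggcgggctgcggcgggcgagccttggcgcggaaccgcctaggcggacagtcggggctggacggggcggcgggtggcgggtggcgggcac
Mcm5, chr8:75109359-75109508, plus strand: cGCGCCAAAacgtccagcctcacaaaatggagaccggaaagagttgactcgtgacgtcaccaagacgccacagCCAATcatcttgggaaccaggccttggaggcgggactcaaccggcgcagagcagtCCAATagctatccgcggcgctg
Mcm6, chr1:128359706-128359855, minus strand: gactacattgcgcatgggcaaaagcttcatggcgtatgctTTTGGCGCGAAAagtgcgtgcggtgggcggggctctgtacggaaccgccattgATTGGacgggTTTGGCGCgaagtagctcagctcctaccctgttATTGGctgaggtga

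The libraries held 2749 and 2937 barcodes with 5688000 and 5862342 UMIs, shared 0 barcodes, and kept 2382 and 2831 barcodes after filtering. The classes were set by marker UMIs alone, without any cell cycle gene. Barcodes without Ptprc and Tyrobp UMIs and nearly without other leukocyte RNA numbered 601 and 922 in replicates 1 and 2, C1q macrophages 927 and 610, Cd3 T cells 186 and 456, dendritic cells 50 and 21, and neutrophils 4 and 22, while 614 and 800 barcodes met no gate. The Ptprc-negative barcodes had been expected to hold tumour cells, but their 7 epithelial markers (Krt8, Krt18 and Krt19 among them) summed to 0 and 1.47 CPM (a gene's UMIs scaled to 1e+06 UMIs per class and library), while 6 fibroblast markers summed to 1454 and 2354 CPM. They are therefore called Ptprc-negative here, with no cell type. They also differed between libraries, with Dcn at 639 and 80.3 CPM and Mgp at 0.551 and 849 CPM. The T cell barcodes carried macrophage RNA: their C1qa, C1qb and C1qc level was 71.0% and 60.9% of that of the macrophages, and 8 macrophage markers summed to 18399 and 8634 CPM in them, 26539 and 13312 in macrophages and 222 and 103 in Ptprc-negative barcodes.

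In both libraries the summed G2/M genes stood highest, among the 3 large classes, in the Ptprc-negative barcodes, at 1917 CPM (exact Poisson 95% interval 1854 to 1982) in replicate 1 and 2342 CPM (2285 to 2401) in replicate 2. The C1q macrophages held 1143 CPM (1094 to 1193) and 1254 CPM (1181 to 1331). The T cells lay at the macrophage level in replicate 1, with 1119 CPM (1028 to 1217), and between the other classes in replicate 2, with 1724 CPM (1640 to 1811). The summed S genes separated the classes less. They stood at 897 and 1273 CPM in Ptprc-negative barcodes, 832 and 861 CPM in macrophages, and 780 and 950 CPM in T cells, so that in replicate 1 the intervals of Ptprc-negative barcodes (853 to 941) and macrophages (791 to 875) overlapped. Dendritic barcodes ranged widely between libraries, with 416 and 1430 CPM for S and 897 and 2145 CPM for G2/M genes. Neutrophils, which have left the cell cycle, held 3 and 11 S and 2 and 13 G2/M UMIs in all, so their levels of 694 and 533 CPM (S) and 463 and 629 CPM (G2/M) have wide intervals. Poisson and binomial intervals here cover counting error only.

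**Figure D1:**
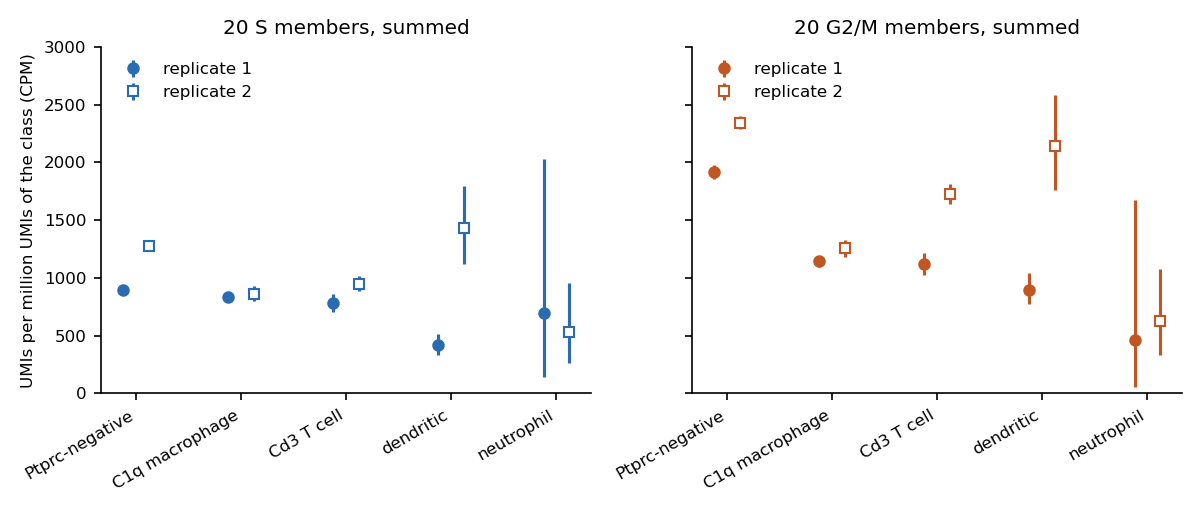
Summed level of the 20 S members (left) and 20 G2/M members (right) in CPM for each barcode class, 1 point per library with its exact Poisson 95% interval (filled: replicate 1, open: replicate 2). The G2/M sum of Ptprc-negative barcodes, 1917 and 2342 CPM, lies above that of macrophages, 1143 and 1254 CPM, in both libraries.

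Gene by gene, 12 of the 20 G2/M members were higher in Ptprc-negative barcodes than in C1q macrophages and 0 were lower (edgeR quasi-likelihood test on UMIs summed per library and class, library as a block, Benjamini-Hochberg adjusted p under 0.05 over 9282 genes). Of all genes tested, 16.9% were called higher and 20.1% lower. The median log2 fold change of the G2/M members was 1.13, against 0.04 over all genes. In the S set 3 of 19 tested members were higher and 0 lower, a share close to that of all genes, with a median log2 fold change of 0.18, and Ung had too few UMIs to be tested. No member was lower at an unadjusted p under 0.05 either, and DESeq2 called 0 lower. The 15 calls dropped to 9 with DESeq2 (which called 10.9% of all genes higher), to 8 without the library block (9.29%) and to 7 of 35 tested members (15.6% of all genes) among barcodes of 1000 to 2500 UMIs, which are fewer and where the median G2/M log2 fold change was 0.82. Depth moved with the classes, since Ptprc-negative barcodes had a median of 1940 and 2184 UMIs and macrophages 1424 and 1191.

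**Figure D2:**
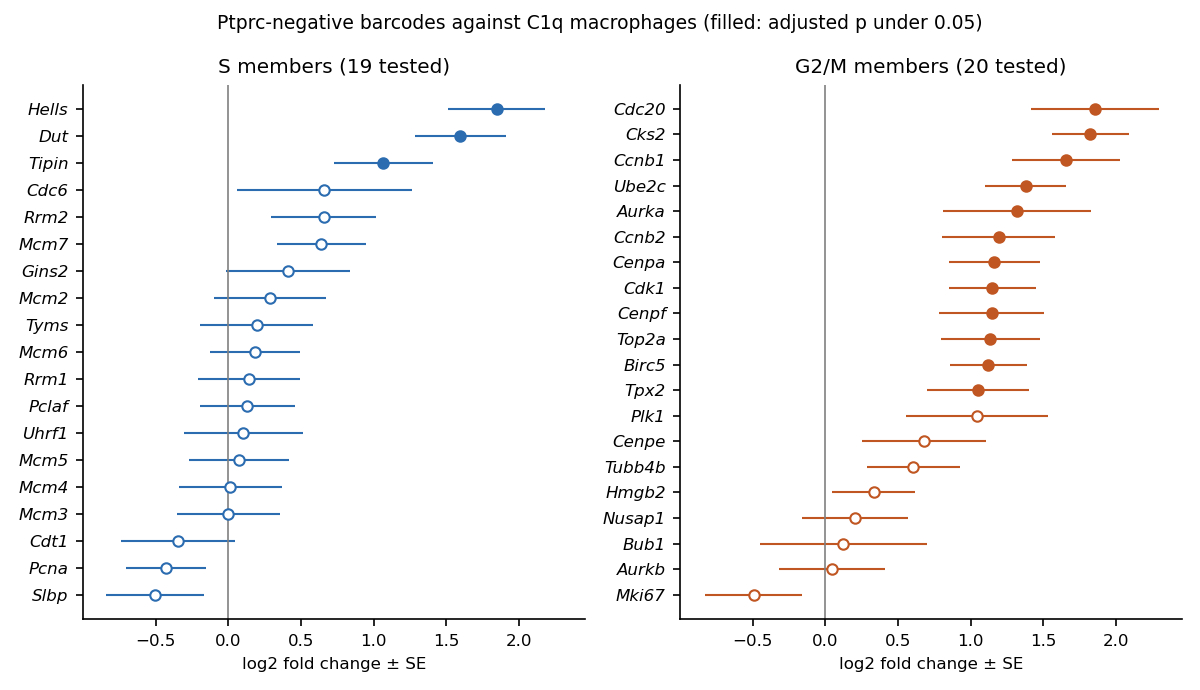
Log2 fold change with its standard error (edgeR, 2 libraries) of each tested S member (left) and G2/M member (right), Ptprc-negative barcodes against C1q macrophages. Filled points have an adjusted p under 0.05: 3 S members, from Hells at 1.85 to Tipin at 1.07, and 12 G2/M members, while Mki67 has the lowest G2/M value at -0.49.

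Cks2, the small subunit of the mitotic kinase (chr13:51645232-51650660, plus strand), had the smallest adjusted p among the members. Resting cells also express Cks2, so a higher level of it alone does not mark cycling barcodes. Its level was 245 and 302 CPM in Ptprc-negative barcodes, 65.9 and 97.4 CPM in macrophages, and 89.4 and 105 CPM in T cells. Both Ptprc-negative libraries lay above all 4 others. Against macrophages the log2 fold change was 1.82 ± 0.27 (SE, edgeR adjusted p = 7.86e-06). At 800 UMIs per barcode, to which deeper barcodes were thinned, 13.7% and 18.8% of Ptprc-negative barcodes and 4.39% and 5.14% of macrophages had a Cks2 UMI.

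Cyclin B1 and the genes that end mitosis stood close to Cks2 in size of change. Ccnb1 lay at 30.3 and 71.5 CPM in Ptprc-negative barcodes against 10.5 and 22.0 CPM in macrophages, which is a log2 change of 1.66 ± 0.37 (SE, edgeR adjusted p = 0.00101). Cdc20, the activator of the ubiquitin ligase (chr4:118432901-118437352, minus strand), stood at 44.1 and 60.9 CPM against 14.9 and 13.9 CPM, a change of 1.86 ± 0.44 (edgeR adjusted p = 0.00174). Its T cell level was 6.09 and 24.1 CPM, so the Ptprc-negative libraries were again the highest. Ube2c, the conjugating enzyme of that ligase, changed by 1.38 ± 0.28 (edgeR adjusted p = 0.000415), from 72.0 and 71.9 CPM in macrophages to 148 and 227 CPM. Among barcodes of 1000 to 2500 UMIs its value fell to 0.62 (edgeR adjusted p = 0.181).

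Cdk1, Birc5 and Cenpa, a kinase, a spindle and a centromere gene, changed by similar amounts. Cdk1 stood at 63.4 and 113 CPM in Ptprc-negative barcodes and 31.6 and 49.9 CPM in macrophages (log2 fold change 1.15 ± 0.30, edgeR adjusted p = 0.00374). Birc5, the survivin gene, stood at 147 and 199 CPM against 78.1 and 84.6 CPM (1.12 ± 0.27, edgeR adjusted p = 0.00174), and Cenpa, the centromeric histone, at 95.3 and 99.4 CPM against 41.5 and 49.9 CPM (1.16 ± 0.31, edgeR adjusted p = 0.00478). For all 3 genes the Ptprc-negative libraries did not overlap the macrophage libraries. As they had been called from the same counts, this adds no separate result, and the share of all genes without overlap was not counted. Birc5 and Cenpa missed the threshold among barcodes of 1000 to 2500 UMIs (edgeR adjusted p = 0.0614 and 0.0676), and Cdk1 missed it without the library block (edgeR adjusted p = 0.0567). Cenpf, Ccnb2, Tpx2 and Aurka also passed, with log2 fold changes between 1.05 and 1.32.

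Top2a and Mki67, the customary proliferation markers, stood on different sides of the threshold. Top2a, the topoisomerase (chr11:98992943-99024189, minus strand), stood at 159 and 219 CPM in Ptprc-negative barcodes, 89.1 and 83.5 CPM in macrophages, and 60.9 and 91.9 CPM in T cells. The change against macrophages was 1.13 ± 0.34 (edgeR adjusted p = 0.0110), and it missed the threshold with DESeq2 and without the library block (adjusted p up to 0.128). Mki67 (chr7:135689784-135716361, minus strand) stood at 30.3 and 43.6 CPM in Ptprc-negative barcodes, 58.1 and 46.4 CPM in macrophages, and 50.8 and 60.2 CPM in T cells. Its log2 fold change of -0.49 ± 0.33 did not pass (edgeR adjusted p = 0.267) and was the lowest of the G2/M set. The difference between these 2 genes was not tested. At 800 UMIs, 1.11% and 3.13% of Ptprc-negative barcodes and 4.52% and 3.56% of macrophages had an Mki67 UMI. The other G2/M members that did not pass were Plk1 (1.04 ± 0.49), Cenpe, Tubb4b, Hmgb2, Nusap1, Bub1 and Aurkb (0.04 ± 0.37). Hmgb2 and Tubb4b have close gene relatives, so their counts may be uncertain, and read mapping was not examined for any member.

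**Figure D3:**
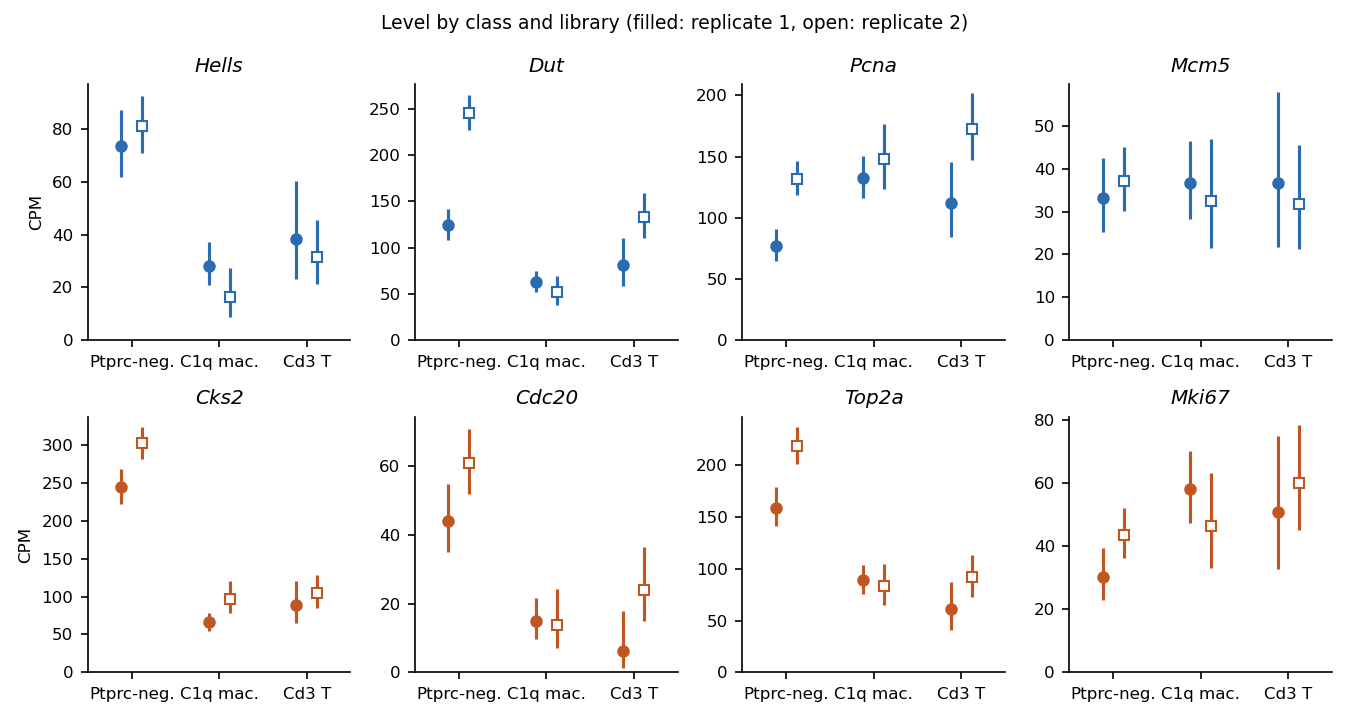
Level in CPM of 4 S members (top) and 4 G2/M members (bottom) in Ptprc-negative barcodes, C1q macrophages and Cd3 T cells, 1 point per library with its exact Poisson 95% interval. Hells, Dut, Cks2, Cdc20 and Top2a are higher in both Ptprc-negative libraries than in both macrophage libraries, Mcm5 overlaps, and Pcna and Mki67 lie lower without passing the test.

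The S members called higher against macrophages were Hells, Dut and Tipin, a share close to that of all genes (above). Hells, a chromatin remodeller that maintains DNA methylation (chr19:38930915-38971051, plus strand), stood at 73.8 and 81.4 CPM in Ptprc-negative barcodes, 28.2 and 16.2 CPM in macrophages and 38.6 and 31.7 CPM in T cells. Its change against macrophages was 1.85 ± 0.33 (edgeR adjusted p = 0.000102). Dut, the dUTPase, stood at 125 and 246 CPM against 62.6 and 52.2 CPM in macrophages (1.60 ± 0.32, edgeR adjusted p = 0.000281), and at 81.3 and 134 CPM in T cells. The Ptprc-negative libraries of both genes lay above the macrophage libraries without overlap, but the Dut levels of Ptprc-negative and T cell libraries overlapped. Tipin changed by 1.07 ± 0.34 (edgeR adjusted p = 0.0159), from 37.1 and 33.6 CPM to 57.9 and 91.3 CPM, and missed the threshold with DESeq2, without the library block and among barcodes of 1000 to 2500 UMIs (adjusted p up to 0.130).

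None of the helicase genes Mcm2 to Mcm7 was called against macrophages. Mcm7 came closest, with a log2 fold change of 0.64 ± 0.30 (edgeR unadjusted p = 0.0463, adjusted p = 0.107), and was called against T cells (below). Mcm5 (chr8:75109569-75128439, plus strand) stood at 33.1 and 37.0 CPM in Ptprc-negative barcodes, 36.5 and 32.5 CPM in macrophages and 36.6 and 31.7 CPM in T cells, and all 3 classes overlapped (log2 fold change against macrophages 0.07 ± 0.34, edgeR adjusted p = 0.889). Pcna (chr2:132249162-132253314, minus strand) stood at 77.1 and 132 CPM in Ptprc-negative barcodes, 132 and 148 CPM in macrophages and 112 and 173 CPM in T cells. Its log2 fold change of -0.43 ± 0.27 did not pass (edgeR adjusted p = 0.238).

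Against the T cell barcodes the same direction was seen, with the same Ptprc-negative sums in both comparisons. There 10 of 20 G2/M and 4 of 19 S members were higher and 0 lower (edgeR and DESeq2), where 14.8% of all genes were called higher and 18.3% lower. The median log2 fold change was 1.01 for G2/M and 0.48 for S members, against 0.04 for all genes. Cks2 changed by 1.60 ± 0.27 (edgeR adjusted p = 5.72e-05), Aurka, the spindle pole kinase, by 1.99 ± 0.61 (edgeR adjusted p = 0.0150), Cdc20 by 1.78 ± 0.47 (edgeR adjusted p = 0.00537) and Top2a by 1.42 ± 0.36 (edgeR adjusted p = 0.00338). The others among the 8 G2/M members with the smallest p, Cdk1, Ube2c, Birc5 and Ccnb1, lay between 1.01 and 1.30. Among the S members Hells changed by 1.26 ± 0.34 (edgeR adjusted p = 0.00536), Tipin by 0.997 ± 0.36, Dut by 0.85 ± 0.31 and Mcm7 by 0.85 ± 0.32. The 14 calls became 9 with DESeq2 (9.1% of all genes called higher), 6 with looser gates (12.9%), 5 without the library block (7.82%) and 4 against T cells with under 3 C1q UMIs (6.92%). Among barcodes of 1000 to 2500 UMIs 1 of 35 tested members, Cks2, was called, below the 12.7% of all genes, and the median G2/M change was 0.36. Of the members named, Cks2 alone passed under all 13 alternatives with a test, and it is a gene that resting cells also express.

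No member was called different between T cells and C1q macrophages, which does not show that the levels were equal. In a simulation of this comparison, 17% of 2-fold changes were recovered. edgeR called 0 of 39 members, where it called 0.83% of all genes higher and 0% lower. DESeq2 also called 0, while 1 S and 1 G2/M member had an unadjusted p under 0.05. The median log2 fold change was -0.08 for S and 0.06 for G2/M members. The direction of the G2/M members depended on the library: 3 of 20 were higher in T cells in replicate 1 and 17 of 20 in replicate 2. The fit restricted to these 2 classes called 3 of 38 members higher, with 3.15% of all genes. The T cell barcodes held most of the macrophages' C1q level (above), and the part of this RNA in the comparison was not tested. In the 55 and 163 T cell barcodes with under 3 C1q UMIs, the summed G2/M level was 1272 and 2050 CPM and the S level 828 and 1155 CPM. T cell barcodes with a Cd8a or Cd8b1 UMI, 31 and 179 in number, had 1064 and 1996 CPM of G2/M members, against 1133 and 1505 CPM in the others.

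Between dendritic cells and C1q macrophages, edgeR called 0 of 39 members and DESeq2 0 of the 20 to which it gave an adjusted p, where edgeR called 0.571% of all genes higher and 0.948% lower. At an unadjusted p under 0.05 stood 3 S and 1 G2/M members. The dendritic sums held 199583 and 51757 UMIs, so a single UMI in replicate 2 weighs much. The median log2 fold change was -0.61 for S and 0.04 for G2/M members, against -0.28 for all genes. With looser gates, which gave 120 and 80 dendritic barcodes, 5 members were called higher, with 4.97% of all genes. In that setting the median log2 fold change was -0.02 for S and 0.96 for G2/M members, against -0.02 for all genes. A higher G2/M level was thus not particular to the Ptprc-negative barcodes in that setting. Neutrophils were too few for a fit. Of the 40 members, 5 had a UMI in the 4320 neutrophil UMIs of replicate 1 and 14 in the 20652 of replicate 2, and the rest were not detectable at this depth.

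At a matched depth of 800 UMIs, the share of barcodes with a G2/M UMI was counted without Hmgb2, Tubb4b and Cks2, which resting cells also express. It was 30.3% (exact binomial 95% interval 26.5 to 34.4) and 44.8% (41.4 to 48.2) in Ptprc-negative barcodes, 21.1% (18.3 to 24.2) and 27.9% (24.0 to 32.0) in macrophages, and 25.5% (19.0 to 32.8) and 35.0% (30.4 to 39.9) in T cells. In each library the intervals of Ptprc-negative barcodes and macrophages did not overlap, and those of T cells and macrophages did. These intervals count barcodes within 1 library and are wider for smaller classes, so they do not test a difference between classes. With 2 libraries a class, an exact permutation test cannot give a p below 0.333. Without thinning these shares were 46.4% and 60.2%, 33.3% and 31.6%, and 41.9% and 50.2%. Among neutrophils the count was 0 of 4 barcodes, for which the exact upper limit is 60.2% (3 counts of 4 would be 75%), and 1 of 11 (9.09%, 0.23 to 41.3). Median depths over all 4 and 22 neutrophil barcodes, including those under 800 UMIs, were 1144 and 823 UMIs. With all 20 G2/M members, the shares were 48.1% and 59.6% in Ptprc-negative barcodes, 39.4% and 45.7% in macrophages, 45.5% and 57.4% in T cells, and 45.5% in the neutrophils of replicate 2 (2 of 4 in replicate 1), but the few neutrophil barcodes set no usable background level. Ptprc-negative barcodes thus stood 11.3 percentage points above macrophages on average. Among barcodes of 1000 to 2500 UMIs this difference was 3.98 points, with 1.97 in replicate 1 and 5.99 in replicate 2.

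The S shares did not separate the classes in the same way. With 17 S members, without Slbp, Tipin and Ung, they were 33.3% and 48.5% in Ptprc-negative barcodes, 36.0% and 34.2% in macrophages, 34.5% and 40.4% in T cells, while 2 of 4 and 5 of 11 (45.5%) neutrophil barcodes had one. The neutrophil intervals, 6.76 to 93.2% and 16.7 to 76.6%, span all of these values, so 15 barcodes set no usable background and nothing is read from the S shares. A stricter count, of barcodes with 3 or more distinct members among the 34, gave 14.6% (11.7 to 17.9) and 25.5% (22.6 to 28.6) in Ptprc-negative barcodes, 12.4% (10.1 to 14.9) and 12.8% (10.1 to 16.1) in macrophages, and 10.9% (6.59 to 16.7) and 16.4% (13.0 to 20.4) in T cells, with 0 of 4 and 1 of 11 neutrophils. The Ptprc-negative and macrophage intervals were apart in replicate 2 and overlapped in replicate 1. Before thinning, Ptprc-negative barcodes with 3 or more of the members had a median of 3020 and 2736 UMIs, against 1976 and 1830 in those with none. In macrophages the corresponding medians were 1551 and 1293 against 1625 and 1275.

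**Figure D4:**
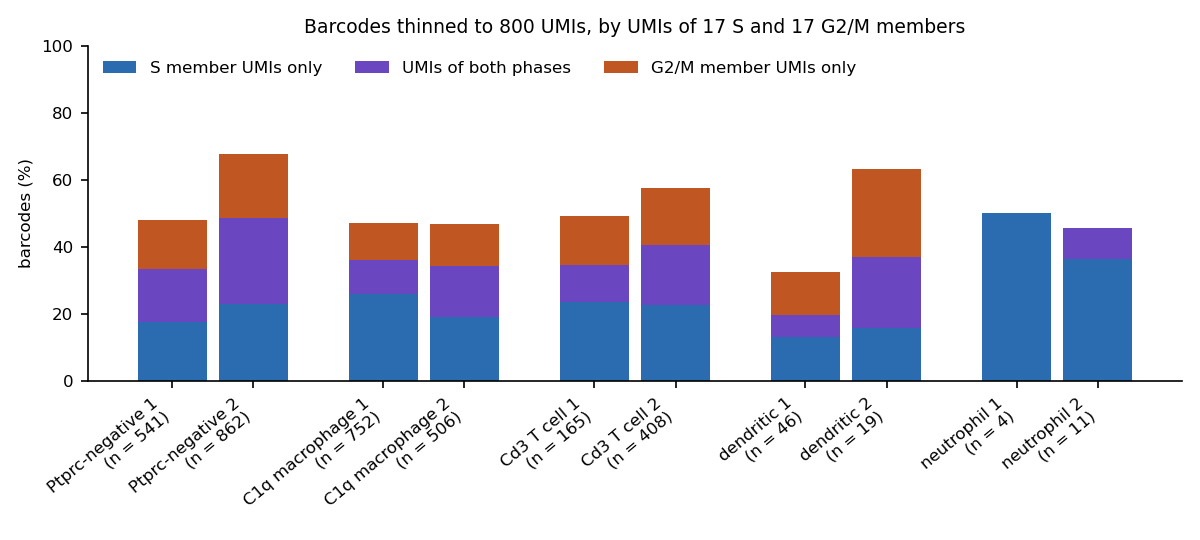
Share of barcodes, each thinned to 800 UMIs, with UMIs of S members alone, of both phases, or of G2/M members alone (17 members per phase), by class and library. Numbers under the bars count the barcodes. G2/M UMIs with or without S UMIs were found in 30.3% and 44.8% of Ptprc-negative barcodes and 21.1% and 27.9% of macrophages.

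The balance of the phases was set side by side, with no test. The ratio of summed S to summed G2/M UMIs was 0.468 and 0.543 in Ptprc-negative barcodes (mean 0.506 ± 0.054, SD, n = 2), 0.728 and 0.687 in macrophages (0.707 ± 0.029) and 0.697 and 0.551 in T cells (0.624 ± 0.103). Without Hmgb2, Tubb4b, Cks2, Slbp, Tipin and Ung the ratios rose to 0.848 and 0.805, 1.30 and 1.30, and 1.42 and 1.02, and both Ptprc-negative libraries lay below both macrophage and both T cell libraries. With all 20 members per phase the order against T cells also held, but the second T cell library lay within 0.01 of the higher Ptprc-negative one. This 20-member order was lost in other settings. Among barcodes of 1000 to 2500 UMIs the ratios were 0.473 and 0.669 against 0.597 and 0.534. From median levels they were 0.781 and 0.729 against 1.29 and 0.757. The order without those members was not examined in these settings. At 800 UMIs, 17.6% and 22.9% of Ptprc-negative barcodes had S UMIs alone and 14.6% and 19.1% G2/M UMIs alone. In macrophages the corresponding shares were 25.8% and 19.0% against 10.9% and 12.6%, and in T cells 23.6% and 22.5% against 14.5% and 17.2%.

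Among 58 other cell cycle genes, of which 53 could be tested, 10 were higher and 6 lower in Ptprc-negative barcodes than in macrophages. As 16.9% of all genes were higher and 20.1% lower, the share called higher is near that of all genes and is no result about the list. The median log2 fold change was 0.42. The genes of entry into the cycle went in both directions. Cdk4, the G1 kinase, stood at 163 and 169 CPM against 58.1 and 44.1 CPM (log2 fold change 1.76 ± 0.28, edgeR adjusted p = 1.99e-05), and its partner Ccnd1, cyclin D1, at 311 and 724 CPM against 222 and 143 CPM (1.46 ± 0.32, edgeR adjusted p = 0.000915). Ccnd3, cyclin D3, went the other way, with 17.6 and 19.4 CPM against 38.8 and 54.5 CPM (-1.25 ± 0.33, edgeR adjusted p = 0.00448). The brakes on the cycle named by the rule were lower. Btg2, an antiproliferative gene, stood at 4.41 and 12.1 CPM against 85.8 and 208 CPM (-4.08 ± 0.39, edgeR adjusted p = 1.17e-08). Rb1, the retinoblastoma protein that holds E2F in check, stood at 2.76 and 8.07 CPM against 26.6 and 39.4 CPM (-2.64 ± 0.45, edgeR adjusted p = 5.52e-05). Cdkn1b, the inhibitor p27, stood at 12.1 and 19.4 CPM against 23.8 and 80.0 CPM (-1.52 ± 0.38, edgeR adjusted p = 0.00287). Cdkn2a, an inhibitor gene counted here over all its transcripts, had a change of 2.68 ± 0.84 (edgeR adjusted p = 0.0150). It went from 2 and 1 UMIs in macrophages (1.11 and 1.16 CPM) to 11 and 26 UMIs in Ptprc-negative barcodes (6.06 and 9.54 CPM). Cdkn2a passed the count filter only through its Ptprc-negative sums. It could therefore be called higher but not lower, and its call is no result about the brakes. It falls outside the rule for named genes and was added after its values were seen. The inhibitors Cdkn1a, Cdkn2c and Cdkn2d and the Rb1 relatives Rbl1 and Rbl2 did not pass, with values between -0.60 and 0.50. Each of the 7 genes with levels given had Ptprc-negative libraries that did not overlap the macrophage ones. All 7 had been called from the same counts, so this is no separate result. The share of all genes without overlap was not counted.

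The other regulators named by the rule were Orc6 (1.504), Hmgb1 (1.06), Cdc25b (1.97) and E2f3 (1.60) among those higher, and E2f2 (-2.34) and Btg1 (-1.03) among those lower. Against T cells 7 of the 53 were higher and 7 lower, shares below the 14.8% and 18.3% of all genes. Among them were Cdk4 at 1.86 ± 0.29 (edgeR adjusted p = 2.09e-05), Ccnd1 at 1.71 ± 0.33 (edgeR adjusted p = 0.000248) and Btg2 at -4.21 ± 0.39 (edgeR adjusted p = 9.60e-09). Between T cells and macrophages edgeR called 0 regulators, 2 having an unadjusted p under 0.05, and between dendritic cells and macrophages also 0, with 4 at that level.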

How the data were processed

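The deposited files hold raw UMI counts per gene and barcode, per the file headers. Cell Ranger 6.0.1, Seurat 4.0.1 and build mm10 are listed in the submitters' processing notes; the gene annotation is not given in the sources used here. Members, lists and gates were chosen with earlier results of these data known. Barcodes with 300 or more genes and under 10% mitochondrial UMIs were kept. Scrublet (scanpy 1.11.5) marked 6 and 6 barcodes, 0.23%, too few to have worked, so doublets remain.

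Gates read raw UMIs: Cd3 T cells, 1 Cd3 and 2 T list UMIs; macrophages, 3 C1q UMIs with Tyrobp; dendritic cells, 3 list UMIs; neutrophils, 5 S100a8 and S100a9 UMIs with a granulocyte gene. Sums per library and class (20 or more barcodes in both libraries; genes with 10 UMIs in 2 sums) were tested with edgeR 4.0.16 (R 4.3.3; TMM, library block, 3 residual degrees of freedom). Classes of 1 library come from the same sample, so the number pairs them. With the library as a block, p-values measure only how class differences varied between these 2 libraries, over the 8 sums of the fit. On simulated counts of 8838 genes for T cells against macrophages, 17% of 2-fold and 83% of 4-fold changes were recovered, with 1.96% false calls. The simulation changed 200 genes in T cells and otherwise gave all classes and libraries the same mean profile and a fixed spread. The real classes and libraries differ more, so these values are not error rates of the real tests. Shares used barcodes thinned to 800 UMIs. Gene positions are from GENCODE M21 (GRCm38). Named are called members, at most 8 per phase and direction by adjusted p, and Mki67, Top2a, Pcna and Mcm5; of the other cell cycle genes at most 6 per direction. Alternatives covered block, scaling, tool, filters, gates, depth and doublets.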

Additional observations from a re-analysis of the deposited data

How the results depend on the processing

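Over the alternatives tried, 0 of 676 values for the 47 named gene results changed direction, and 82 lost the call. These results were named for passing in the main fit, and the alternatives reuse the same 2 libraries. A kept direction was therefore likely beforehand and is no separate evidence. Against macrophages, Btg2, Ccnb1, Ccnd1, Cdc20, Cdk4, Cdkn1b, Cks2, Dut, Hells and Rb1 passed in all 12 alternatives with a test. Members called higher in Ptprc-negative barcodes than in macrophages, 15, became 9 with the DESeq2 Wald test, 8 without the replicate block and 7 among barcodes of 1000 to 2500 UMIs, a setting chosen after seeing the data, as was leaving out the 5% highest Scrublet scores. Against T cells, 14 became 9, 5 and 1 in these settings, 4 with T barcodes under 3 C1q UMIs and 6 with looser gates. Without the block, genes called higher and lower in all went from 1567 and 1868 to 862 and 1379 against macrophages. T cells against macrophages gave 3 instead of 0 with only the 2 classes in the fit, and dendritic cells against macrophages 5 higher instead of 0 with looser gates and 1 lower without a count filter. The causes were not tested.

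The G2/M share with all 20 members was 11.3 percentage points higher in Ptprc-negative barcodes than in macrophages, 16.4 points with 500 genes and 5% mitochondrial UMIs, and 3.98 among barcodes of 1000 to 2500 UMIs. For T cells it was 8.90 points higher, 5.75 without 6 members, 16.6 without thinning and 3.44 with under 3 C1q UMIs, where replicate 1 turned to -2.15 and replicate 2 stood at 9.04. The S share difference of T cells, 2.58 points, became 11.96 without thinning. Leaving out 1 library, the S share difference ranged from -4.12 to 14.96 points for Ptprc-negative barcodes and from -0.77 to 5.93 for T cells. The S to G2/M ratio of Ptprc-negative barcodes became 0.571 among barcodes of 1000 to 2500 UMIs, 0.755 from median levels and 0.826 without 6 members. That of macrophages became 0.746 with 500 genes and 5% mitochondrial UMIs, 0.755 with stricter gates, 1.16 from medians and 1.30 without 6 members, and that of T cells 1.02 and 1.22 in the last 2 settings. Ptprc-negative barcodes with Krt8 or Krt18 numbered 0 and 4, so that alternative could not be run, nor could any for neutrophils, or for dendritic cells under stricter gates, the stricter cell filter and the depth band. Without 1 library no residual degrees of freedom remain, so only fold changes were computed.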
